A study of Mus musculus with 12 samples.

Results

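The contacts described here joined places on the same autosome that lay 50 Mb or more apart. Each was a pair of interaction anchors, that is, restriction fragments or short runs of them between GATC sites, with midpoints at least that far apart on 1 of the 19 autosomes. In Hi-C, 226132 of the 10237359 interactions of the ESC library and 357892 of the 10708066 interactions of the NCC library met this rule. In FGFR1 HiChIP there were 29690 such interactions in ESC and 56604 in NCC, and in CTCF HiChIP 12586 and 17679. The rule used chromosome and distance, and no score.

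The ESCs were E14Tg2A mouse embryonic stem cells grown on gelatin with LIF, the cytokine that keeps them undifferentiated. The NCCs, neural committed cells, were the same line after 1 μM retinoic acid for 48 h in medium without LIF. Hi-C records pairs of DNA ends ligated inside fixed nuclei, and HiChIP enriches such pairs with an antibody, here against the receptor FGFR1, which also occurs in the nucleus, or against CTCF, a DNA-binding protein found at many loop anchors. Each of the 6 combinations had 2 biological replicates that were merged in the deposited tables, so each value comes from 1 pooled library. The spread between replicates is therefore unknown here, and all intervals are 95% intervals of counting error. All groups come from 1 line in culture, and the tables hold no RNA by which cell identity could be checked.

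In an interphase nucleus each chromosome occupies its own territory, and the chance that 2 of its loci touch falls with their distance along the DNA. Within the territory, gene-rich active chromatin and gene-poor silent chromatin tend to lie apart, and contacts across many megabases follow that division. Mouse chromosomes carry the centromere at one end, so each autosome is a single long arm. Its assembled sequence starts at 3 Mb, next to the centromere, and ends at the telomere.

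Nearly all far contacts were seen in a single read pair. The share of interactions with a score of 1 was 99.7% in both Hi-C libraries, and the highest score was 14 in ESC and 17 in NCC. Interactions with a score of 2 or more numbered 664 in ESC and 912 in NCC. The 4 pairs of anchors with the most read pairs in both cell types together are given as examples and do not stand for the rest. They are printed 5′ to 3′ on the plus strand of GRCm38 (mm10), from RefSeq.

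The highest pair, on chromosome 6, joined chr6:78214918-78217303, which overlaps an exon of the processed pseudogene Gm5576, with chr6:136326449-136332189, which overlaps an exon of Gm8994. Summed over interactions whose anchors overlap both places, it had 16 read pairs in ESC and 17 in NCC. The anchors share sequence: 46.4% of the 25-base words of the smaller set occur in both, on either strand, and the longest identical run is 218 bases. It is given in capitals at chr6:78215573-78215850 and chr6:136328238-136328515.
Gm5576 anchor: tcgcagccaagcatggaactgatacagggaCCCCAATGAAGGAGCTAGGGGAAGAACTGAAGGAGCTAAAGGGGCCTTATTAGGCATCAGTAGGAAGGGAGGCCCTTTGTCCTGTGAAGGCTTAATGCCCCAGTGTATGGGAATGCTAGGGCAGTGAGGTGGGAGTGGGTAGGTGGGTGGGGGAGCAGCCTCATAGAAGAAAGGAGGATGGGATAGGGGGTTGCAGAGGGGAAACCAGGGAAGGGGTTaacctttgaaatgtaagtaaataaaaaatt
Gm8994 anchor: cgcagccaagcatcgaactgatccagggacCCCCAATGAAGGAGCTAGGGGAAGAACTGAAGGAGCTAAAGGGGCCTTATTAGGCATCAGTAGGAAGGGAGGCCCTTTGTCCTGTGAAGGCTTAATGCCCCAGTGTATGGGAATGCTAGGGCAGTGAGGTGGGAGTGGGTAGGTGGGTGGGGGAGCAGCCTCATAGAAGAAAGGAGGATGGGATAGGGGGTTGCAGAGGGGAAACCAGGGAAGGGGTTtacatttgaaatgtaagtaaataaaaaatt

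The second pair, on chromosome 5, joined an anchor over an exon of Fryl with an anchor in an intron of Hmgb1, a chromatin protein gene, and had 8 read pairs in each cell type. Of the 25-base words of the smaller set, 1.29% occur in both anchors, against 46.4% in the first pair. The longest identical run of this second pair is 73 bases, in capitals at chr5:73145957-73146089 and chr5:149103681-149103813.
Fryl anchor: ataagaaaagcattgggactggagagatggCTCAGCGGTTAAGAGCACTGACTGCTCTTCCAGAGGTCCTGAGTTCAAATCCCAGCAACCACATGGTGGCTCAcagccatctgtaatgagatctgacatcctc
Hmgb1 anchor: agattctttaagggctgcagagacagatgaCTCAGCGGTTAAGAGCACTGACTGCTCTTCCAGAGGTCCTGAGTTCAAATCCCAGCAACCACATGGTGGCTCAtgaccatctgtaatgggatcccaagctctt

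The other two pairs had 6 read pairs in ESC and 7 in NCC each, and no 25-base word in common. One, on chromosome 4, joined an anchor over the processed pseudogene Gm11223 with an intergenic anchor 1073 bp from Stmn1, a regulator of microtubules. The other, on chromosome 5, joined an intron of Cnpy1 with an intergenic anchor 169967 bp from Tbx3, a transcription factor of pluripotent cells and limb development. Their first 120 bases are shown with each GATC, the sequence at which all anchors start and end, in capitals, at chr4:69923961-69924080, chr4:134474916-134475035, chr5:28218484-28218603 and chr5:119495459-119495578.
Gm11223 anchor: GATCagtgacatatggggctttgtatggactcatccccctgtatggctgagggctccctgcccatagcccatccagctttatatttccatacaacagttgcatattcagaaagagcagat
Stmn1 side anchor: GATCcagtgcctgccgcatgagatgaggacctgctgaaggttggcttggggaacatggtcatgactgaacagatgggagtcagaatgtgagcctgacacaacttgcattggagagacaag
Cnpy1 anchor: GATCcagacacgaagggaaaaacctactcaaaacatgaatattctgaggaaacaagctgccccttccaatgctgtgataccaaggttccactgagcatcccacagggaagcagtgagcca
Tbx3 side anchor: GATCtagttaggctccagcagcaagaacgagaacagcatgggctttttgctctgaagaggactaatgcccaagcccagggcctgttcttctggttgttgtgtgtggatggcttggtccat
None of the 4 pairs had a higher score in one cell type by more than 1 read pair. The Cnpy1 pair had 0 FGFR1 HiChIP read pairs in ESC and 4 in NCC, while the 4 HiChIP libraries held 2 read pairs or fewer of any of the others.

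NCC had 1.55 times as many far contacts as ESC in Hi-C at equal depth. They were 226835 read pairs, or 1.093% (1.089% to 1.098%, Wilson interval), in ESC and 358857 read pairs, or 1.690% (1.685% to 1.696%), in NCC. These are shares of the read pairs between deposited anchors on chromosomes 1 to 19 and X, not of all valid read pairs. The log2 ratio was 0.63 (0.62 to 0.64). FGFR1 HiChIP rose from 1.12% to 1.77%, a log2 ratio of 0.66 (0.64 to 0.68), and CTCF HiChIP from 1.04% to 1.68%, a log2 ratio of 0.69 (0.66 to 0.73). Thus all 3 assays had the rise, by 1.55 to 1.62 times. With scores of at least 2 only, on 38 and 17 interactions, the CTCF HiChIP ratio turned to -0.61 (-1.19 to -0.02).

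Contacts at 10 to 50 Mb did not move with them in Hi-C, at 0.98 times the ESC level. They were 1.04 times the ESC level in FGFR1 and 1.13 times in CTCF HiChIP. Inter-chromosomal read pairs rose as well, from 9.99% to 11.5% in Hi-C, or 1.15 times. Relative to these, the far contacts rose by 1.35 times (1.34 to 1.36) in Hi-C, 1.38 times in FGFR1 and 1.299 times in CTCF HiChIP.

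The inter-chromosomal totals of each 1 Mb bin also gave an expected number of far contacts, as if the 2 bins lay on different chromosomes. It was 46165 read pairs in ESC and 53628 in NCC, or 20.4% and 14.98% of those observed. At equal depth the expected number rose by 1.14 times and the read pairs above it by 1.651 times. Both HiChIP pairs had the same order, with 1.14 and 1.71 times for FGFR1 and 1.23 and 1.72 times for CTCF. Within these libraries, then, the far contacts rose more than the number expected from the inter-chromosomal totals of their 1 Mb bins.

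The rise grew with distance up to 120 Mb. In Hi-C the log2 ratio was 0.03 at 30 to 40 Mb, 0.23 at 40 to 50 Mb, 0.44 (0.43 to 0.46) at 50 to 60 Mb, 0.71 (0.69 to 0.73) at 70 to 80 Mb and 0.92 (0.89 to 0.96) at 100 to 110 Mb. It was highest among the classes with over 1000 read pairs at 110 to 120 Mb, with 5747 read pairs in ESC, 11443 in NCC and a log2 ratio of 0.96 (0.91 to 1.01). Beyond that it grew no further in a steady way and was lower at 130 to 140 Mb, at 0.75 (0.68 to 0.82) on 7 chromosomes. It stayed between 0.69 and 1.07 up to the longest distances. At 100 Mb or more the log2 ratio exceeded that at 50 to 60 Mb by 0.45.

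**Figure D1:**
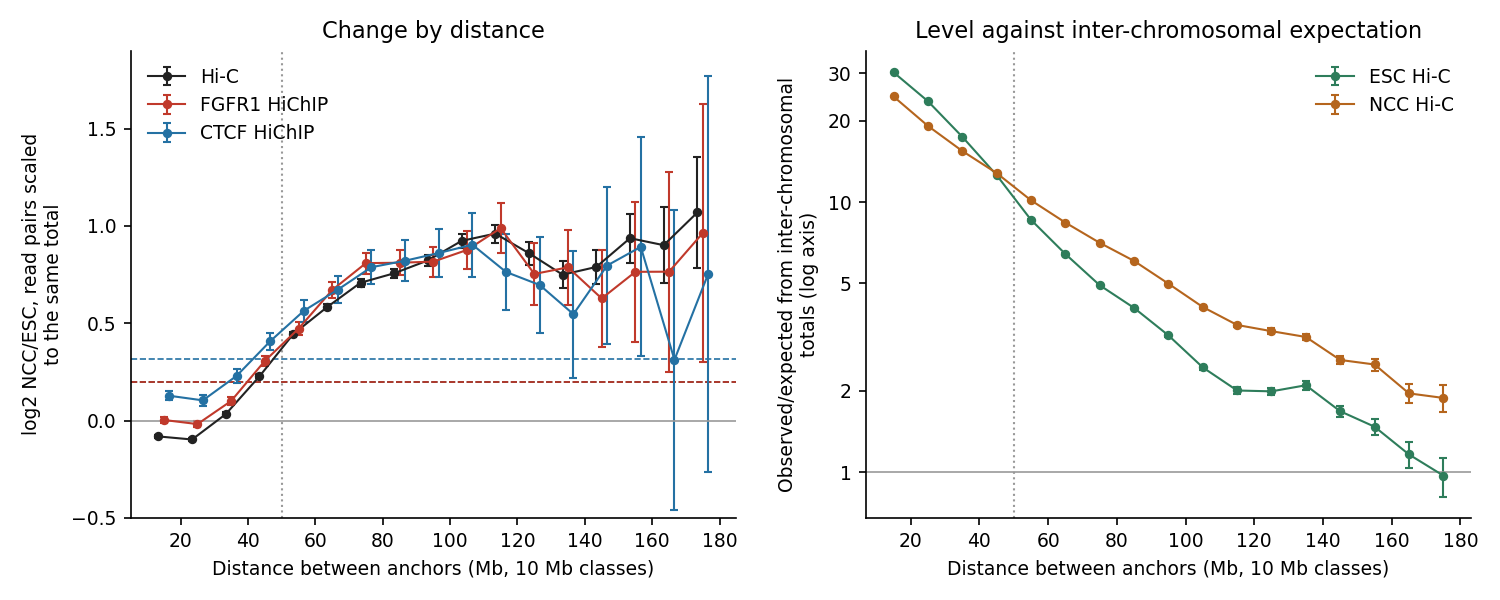
Left, log2 ratio NCC/ESC of read pairs scaled to the same total by distance between anchors, for Hi-C and both HiChIP assays, with 95% counting intervals. Dashed lines give the ratio of inter-chromosomal read pairs (those of Hi-C and FGFR1 coincide at 0.20), the solid line is no change and the dotted line is the 50 Mb limit. Right, observed over expected read pairs in Hi-C on a log axis, where 1 is the level between chromosomes and the curves of ESC and NCC cross between 40 and 50 Mb.

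Measured against the level between chromosomes, ESC contacts fell from 8.61 times at 50 to 60 Mb to 2.01 times at 110 to 120 Mb and 0.97 times (0.81 to 1.13) at 170 to 180 Mb. NCC contacts fell less steeply, from 10.2 times to 3.51 and 1.88 times (1.67 to 2.09). At 170 to 180 Mb the interval thus held 1, the level between chromosomes, in ESC and lay above it in NCC. In the classes beside it ESC stood at 1.16 times (1.03 to 1.29) at 160 to 170 Mb, above 1, and 1.17 times (0.83 to 1.52) at 180 to 200 Mb. The value at 170 to 180 Mb rests on 2 chromosomes, 1 and 2, the one at 110 to 120 Mb on 14 and the one at 50 to 60 Mb on 19, so the course does not follow the same chromosomes throughout. Both HiChIP assays had the same course to 120 Mb, with log2 ratios of 0.47 and 0.56 at 50 to 60 Mb and 0.99 and 0.76 at 110 to 120 Mb, and few read pairs beyond. With distance taken as a share of the arm the Hi-C log2 ratio rose at each step, from 0.38 at 20 to 30% to 0.93 (0.87 to 1.00) at 90 to 100%, where 2742 read pairs in ESC and 5354 in NCC joined opposite ends of chromosomes.

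The rise was present on each of the 19 autosomes in all 3 assays, but its size varied. As a share of the read pairs within each chromosome, the Hi-C log2 ratio ran from 0.34 (0.30 to 0.38) on chromosome 16 to 0.94 (0.88 to 1.00) on chromosome 17, with a median of 0.70. Chromosome 16 held 8602 far read pairs in ESC and 11377 in NCC, and chromosome 17 held 3516 and 6560. Chromosome 4 (0.47), chromosome 19 (0.53, on 680 and 958 read pairs), chromosome 5 (0.56), and chromosomes 12 and 2 (0.57 each) lay below the median, and chromosomes 10 (0.79) and 15 (0.78) above it. The Hi-C intervals of chromosomes 16 and 17 overlapped those of no other autosome, whereas many of the rest overlapped each other.

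**Figure D2:**
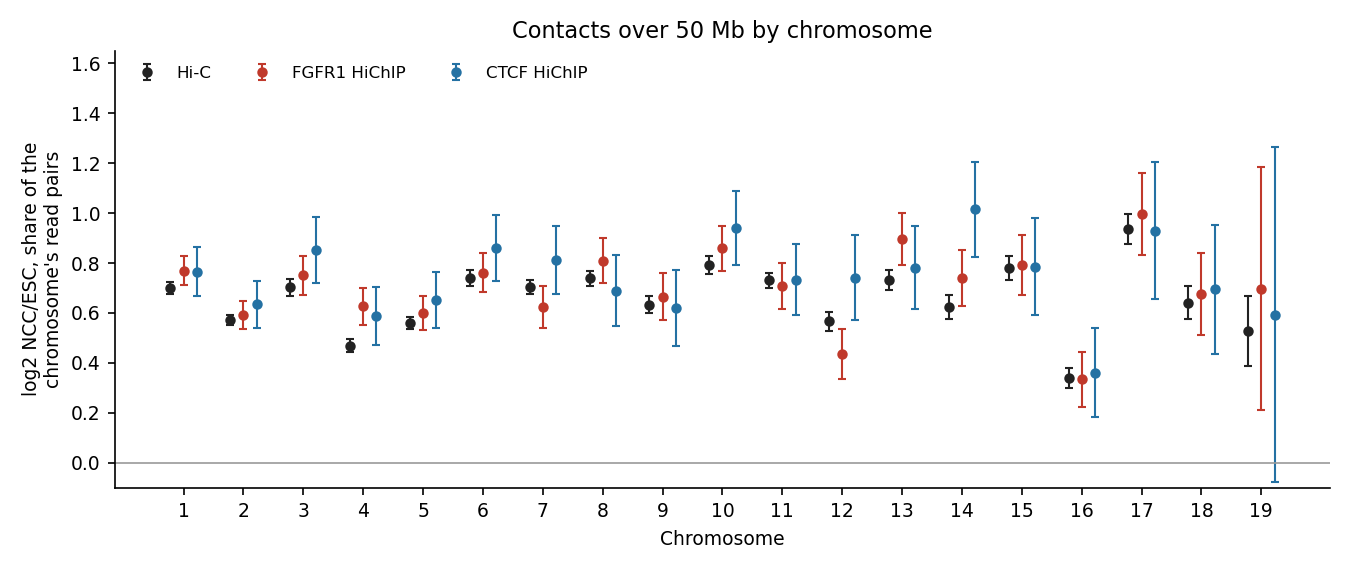
Log2 ratio NCC/ESC of the share of read pairs 50 Mb or more apart in all read pairs within each autosome, for Hi-C and both HiChIP assays, with 95% counting intervals. Every point lies above 0, although the CTCF interval of chromosome 19 holds 0, chromosome 16 is lowest in all 3 assays, and chromosome 17 is highest in Hi-C and FGFR1 HiChIP.

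The HiChIP libraries, which are separate reads from the same cell types, placed the chromosomes in a like order. Over the 19 autosomes the Hi-C ratios had a Pearson r of 0.87 with those of FGFR1 and 0.78 with those of CTCF HiChIP, where the points share chromosome length and base composition. Chromosome 16 was lowest in both (0.33 and 0.36). Chromosome 17 was highest in FGFR1 (1.00) and stood at 0.93 in CTCF, where chromosome 14 was highest (1.01). On chromosome 19, with 32 and 40 read pairs in CTCF HiChIP, the interval held 0. With chromosome length the Hi-C ratio had an r of 0.02 and a Spearman rho of -0.04.

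At a single distance chromosome 16 was again lowest in all 3 assays. At 50 to 60 Mb the Hi-C log2 ratio was 0.18 (0.12 to 0.25) on chromosome 16, against a median of 0.46. It was highest on chromosome 17 at 0.79 (0.72 to 0.87), an interval that overlapped that of chromosome 15 (0.59 to 0.75), and in CTCF HiChIP chromosome 15 was highest (0.92) with chromosome 17 at 0.74. At 20 to 40 Mb, outside the far contacts, it ran from -0.17 to 0.14 with chromosome 17 again highest. Inter-chromosomal over intra-chromosomal read pairs rose by similar amounts on all of them, 0.20 to 0.27 on the log2 scale, and the share of all read-pair ends on a chromosome moved by -0.06 to 0.05.

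Chromosome 16 had the highest far level of all autosomes in ESC, at 8.44 times the level between chromosomes against a median of 4.96, and changed least, to 9.004 times. Much of this lay in contacts of 28 to 40 Mb with 90 to 98 Mb, a block picked after its values were seen. It held 3303 of 8602 far read pairs in ESC and 3377 of 11377 in NCC, the same number at equal depth (1.00 times, 0.95 to 1.05). The rest of the chromosome rose by 1.48 times (1.43 to 1.53). FGFR1 HiChIP had 0.87 times (0.75 to 1.00) in the block and 1.49 times outside it, and CTCF HiChIP 0.98 and 1.51 times. Olig1 and Olig2, transcription factor genes of the oligodendrocyte lineage, lie in the second region, and the transferrin receptor gene Tfrc in the first.

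Along the chromosome the rise was largest next to the centromere. Ends of far contacts were summed over 10 equal segments of each autosome and divided by the number expected from inter-chromosomal totals. In ESC this level was 3.65 in the first segment, 6.96 in the fifth and 4.10 in the last, and in NCC it was 5.91, 8.63 and 5.45. The change was thus 0.70 (0.68 to 0.71) on the log2 scale in the segment at the centromere, 0.30 (0.28 to 0.32) in the fourth, and 0.41 (0.40 to 0.43) at the telomere. FGFR1 HiChIP gave 0.69, 0.28 and 0.41 and CTCF HiChIP 0.58, 0.35 and 0.33 for the same segments.

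**Figure D3:**
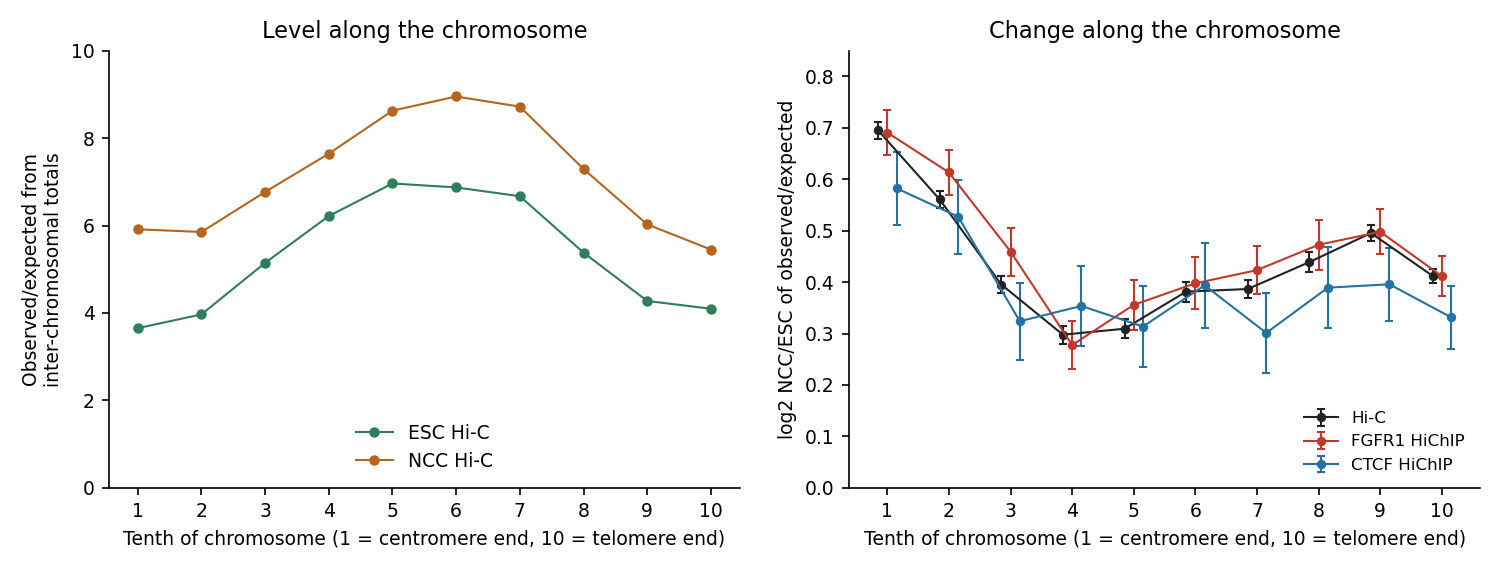
Left, ends of Hi-C read pairs 50 Mb or more apart by segment of the chromosome (10 equal segments, counted from the centromere), as observed over expected from inter-chromosomal totals in ESC and NCC. Right, the log2 change of that value in each assay with 95% counting intervals. The change is highest in the 2 segments next to the centromere in all 3 assays and at most 0.50 in the others.

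Contacts between the first 10 Mb after the centromere gap and the last 10 Mb before the telomere rose from 4498 to 8293 read pairs in Hi-C. Observed over expected went from 2.33 to 3.86, a log2 change of 0.73 (0.68 to 0.78), against 0.41 (0.40 to 0.42) for contacts between 2 bins of the interior. The difference was 0.32 (0.27 to 0.38). It was above 0 on all 18 autosomes that had interior pairs at this distance. Because end pairs are also distant pairs, it was taken within distance bands, where it was smaller: -0.05 (-0.18 to 0.09) at 50 to 75 Mb, 0.22 (0.13 to 0.31) at 75 to 100 Mb and 0.18 (0.09 to 0.26) at 100 Mb or more. Over all distances it was 0.38 (0.23 to 0.54) in FGFR1 HiChIP, and in CTCF HiChIP 0.13, with an interval from -0.11 to 0.37 that held 0.

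The change was larger at the centromere end than at the telomere end. Against expected numbers, contacts of the centromere end with the interior changed by 0.69 (0.67 to 0.71). Those of the telomere end with the interior changed by 0.36 (0.34 to 0.38). The first exceeded the second on 16 of 18 autosomes. In read pairs at equal depth alone the 2 changes lay closer, at 0.78 (0.76 to 0.80) and 0.59 (0.57 to 0.60). Expected numbers went from 7347 to 7979 for the first and from 11031 to 13205 for the second. Contacts of the centromere end with the interior changed more than interior pairs in each band, by 0.47 against 0.26 at 50 to 60 Mb, 0.88 against 0.48 at 80 to 90 Mb and 0.87 against 0.58 at 120 Mb or more, and their intervals did not overlap. In read pairs at equal depth alone, the intervals at 120 Mb or more did overlap (0.80 to 0.98 and 0.72 to 0.82). Against expected numbers, telomere-to-interior pairs lay below interior pairs at 50 to 60 Mb (0.08 against 0.26). They lay above interior pairs at 80 to 90 Mb (0.71 against 0.48). Contacts from centromere to telomere end did not differ from interior pairs at 50 to 60 Mb, where only chromosome 19 holds them, beyond their interval (0.23, 0.08 to 0.37). At 75 to 100 Mb they changed by 0.73 (0.64 to 0.81), less than those of the centromere end with the interior at 0.86 (0.82 to 0.90), while over all distances the intervals of these classes overlapped.

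With an expected number from each bin's own far total and from distance, the difference between end and interior pairs was -0.01 (-0.06 to 0.04). This expectation takes up by construction what a bin gained with all its partners. It also takes up what contacts at each distance gained, and end pairs are among the longest of each chromosome. So small a value could follow from the fit itself, and a preference between the ends cannot be judged from it.

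By gene content, contacts that joined a gene-rich with a gene-poor bin rose more than those between gene-rich bins. Gene-rich bins of 1 Mb held 9 to 67 starts of protein-coding genes (844 bins) and gene-poor bins 0 to 3 (926 bins). Mixed contacts went from 36637 to 61254 read pairs, and from 3.65 to 5.39 times the expected number, a log2 change of 0.56 (0.54 to 0.58). Contacts between gene-rich bins went from 71465 to 107552 read pairs and from 5.39 to 6.81 times, a change of 0.34 (0.32 to 0.35). Those between gene-poor bins went from 9658 to 15374 read pairs and from 5.95 to 8.56 times, a change of 0.52 (0.49 to 0.56).

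In both cell types like bins met more often than mixed bins, and the gap narrowed in NCC between mixed pairs and all like pairs, most of whose read pairs joined gene-rich bins. Against gene-poor pairs alone the intervals overlapped (0.56 and 0.52), and at 100 Mb or more gene-poor pairs changed by 1.00 (0.87 to 1.13) and mixed pairs by 0.82 (0.76 to 0.87). The change of mixed contacts exceeded that of all like contacts by 0.21 (0.18 to 0.23) on the log2 scale. This difference was above 0 on 16 of 19 autosomes, but its interval held 0 on 6 of the 19, among them chromosome 19 (0.98, -0.39 to 2.36), and it lay below 0 on chromosome 13 (-0.14, -0.26 to -0.01). It was 0.15 (0.09 to 0.21) in FGFR1 and 0.14 (0.04 to 0.23) in CTCF HiChIP. At 10 to 50 Mb it was 0.07 in Hi-C, and in FGFR1 and CTCF HiChIP its interval held 0. With the expected number from far totals and distance it was 0.07 (0.05 to 0.09) in Hi-C, and 0.06 in CTCF HiChIP with an interval from -0.04 to 0.15.

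Contacts between gene-rich bins rose less than those between gene-poor bins, by 0.19 (0.15 to 0.23), and this turned to 0.05 (0.02 to 0.09) the other way with the expected number from far totals and distance. FGFR1 HiChIP gave -0.08 with an interval from -0.16 to 0.01 that held 0, and CTCF HiChIP -0.19 (-0.34 to -0.05). At 10 to 50 Mb the sign was opposite in Hi-C, at 0.13. Against expected numbers the far order held in each class from 50 to 60 Mb to 120 Mb or more. Gene-rich and gene-poor bins had 0.15 and 0.28 in the first class and 0.48 and 0.98 in the last. In read pairs at equal depth alone, gene-rich pairs changed by 0.56 (0.54 to 0.57) and gene-poor pairs by 0.64 (0.60 to 0.67). At 50 to 60 Mb these intervals overlapped (0.36 to 0.41 and 0.36 to 0.48).

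**Figure D4:**
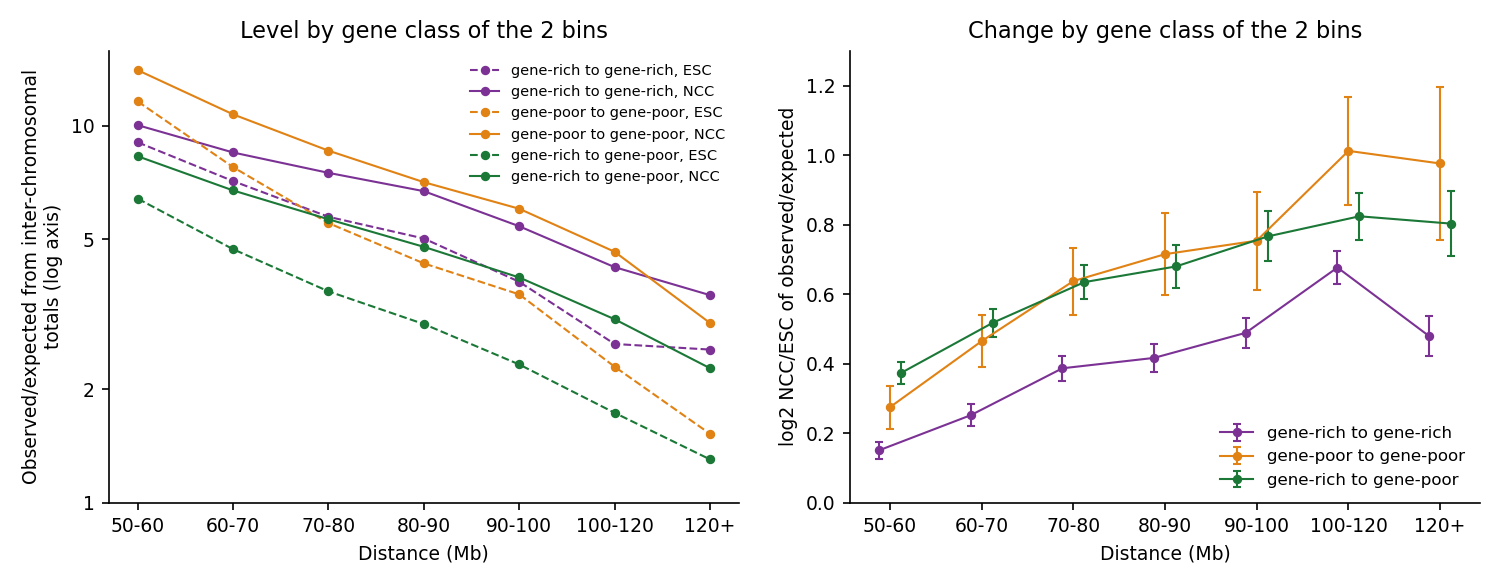
Left, observed over expected Hi-C read pairs by distance for pairs of gene-rich bins, pairs of gene-poor bins and mixed pairs, in ESC (dashed) and NCC (solid), on a log axis. Right, the log2 change of that value with 95% counting intervals. Pairs of gene-rich bins change least in every distance class.

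A finer division gave the same picture. Bins with no gene and bins with 16 to 67 genes met at 2.53 times the expected number in ESC and 4.04 times in NCC, a log2 change of 0.68 (0.61 to 0.75), the highest among the 21 combinations of 6 gene classes. The lowest was 0.29 (0.26 to 0.31), between bins of 9 to 15 genes. Gene-poor bins are also poorer in GC (median 38.8% against 44.4%). Far ends in gene-poor bins rose by 1.597 times in Hi-C, 1.87 in FGFR1 and 1.84 in CTCF HiChIP at equal depth. Those in gene-rich bins rose by 1.52, 1.43 and 1.496 times. In the 801 bins lowest in GC, far ends rose by 1.56, 2.02 and 1.98 times. The 801 bins highest in GC had 1.51, 1.38 and 1.46 times. In these ratios the GC groups thus lay further apart than the gene groups in both HiChIP assays, but closer in Hi-C. The ratios were not divided by inter-chromosomal ends, so they also hold how often a bin was seen at all. Against expected numbers, the interval of the FGFR1 difference between gene-rich and gene-poor pairs included no change, as given above. With Hi-C pairs classed by GC, the log2 change of high-GC minus low-GC pairs was -0.32 (-0.37 to -0.26). That of mixed minus like pairs was 0.35 (0.32 to 0.37). By gene content these differences were -0.19 and 0.21. How much belongs to base composition and how much to gene content was not tested.

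The contacts that were most frequent rose least. Pairs of 1 Mb bins were grouped by their read pairs in the 4 HiChIP libraries together, a grouping chosen after other values were seen, and the Hi-C change was read in each group. Where HiChIP had none, Hi-C rose by 1.76 times over 22017 bin pairs. It rose by 1.63 times where HiChIP had 2 to 3 read pairs, 1.28 times at 8 to 15, and 1.12 times (log2 0.16, 0.11 to 0.21) over the 119 bin pairs with 16 or more. Against the level between chromosomes these 119 pairs stood at 12.7 times in ESC and 12.2 times in NCC. At 80 Mb or more the ratio fell from 1.94 times where HiChIP had none to 1.11 times at 16 or more. At 50 to 60 Mb the groups with up to 7 HiChIP read pairs lay between 1.39 and 1.47 times in no order, and the 2 highest groups at 1.24 and 1.10 times.

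**Figure D5:**
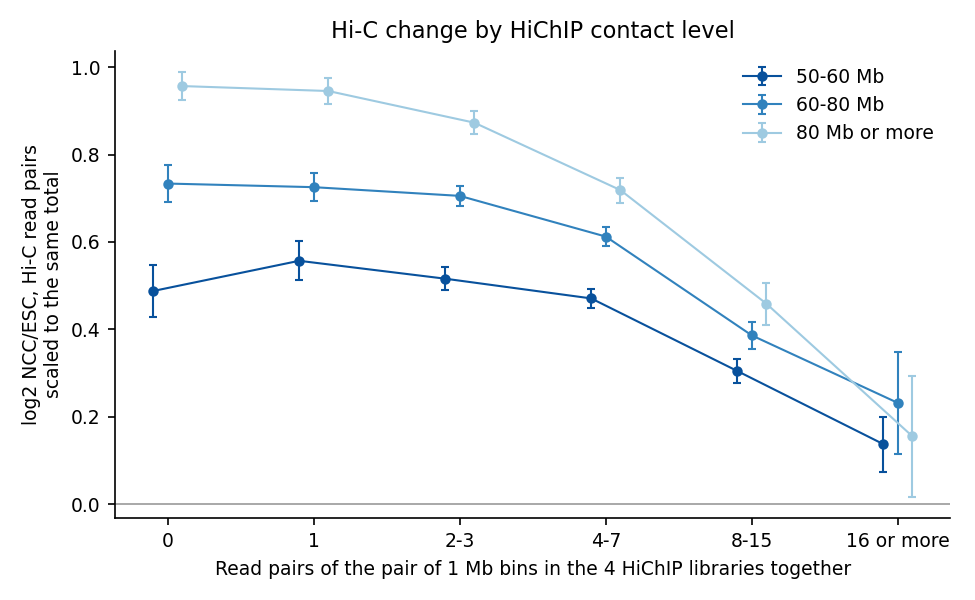
Log2 ratio NCC/ESC of Hi-C read pairs for pairs of 1 Mb bins grouped by their read pairs in the 4 HiChIP libraries together, in 3 distance bands, with 95% counting intervals. The change falls to between 0.14 and 0.23 in bin pairs with 16 or more HiChIP read pairs, while bin pairs with none lie between 0.49 and 0.96.

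The frequent pairs were gene-rich. Both bins were gene-rich in 73.9% of the 119 pairs and in 7.87% of the pairs without HiChIP reads, and the median bin held 17 genes against 4. The pair with most HiChIP read pairs, 34, joined chr8:70000001-71000000 with chr8:123000001-124000000. The first bin holds 50 genes and the second 27, among them the ribosomal protein gene Rpl13 and the neuronal tubulin gene Tubb3. It had 160 Hi-C read pairs in ESC and 147 in NCC, or 0.90 times (0.72 to 1.12) at equal depth. A pair on chromosome 7, at 45 to 46 and 127 to 128 Mb with 67 and 57 genes, had 124 and 97 read pairs (0.76 times, 0.59 to 1.00).

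The bin of Fgfr1 itself, chr8:25000001-26000000, took part in another of them. With chr8:84000001-85000000, which holds Junb, a subunit gene of the AP-1 transcription factor, and Calr, a chaperone gene of the endoplasmic reticulum, it had 71 Hi-C read pairs in ESC and 72 in NCC, or 0.99 times (0.71 to 1.38). Over the 8 bin pairs with the most HiChIP read pairs the Hi-C ratio ran from 0.76 to 1.46. Those on chromosome 11 had 1.29 times (0.98 to 1.70) and 1.46 times (1.04 to 2.04), and those on chromosome 16 had 1.10 and 1.23 times with intervals that held 1.

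Of single 1 Mb bins, 267 of the 1831 with at least 50 far ends in each Hi-C library, or 14.6%, had at least 2-fold more far ends in NCC, and 57, or 3.11%, had fewer. The median ratio was 1.56, and 80% of bins lay between 1.19 and 2.11. At 10 to 50 Mb 27 of 2317 bins reached 2-fold. The 267 bins had a median ratio of 2.08 in FGFR1 and 2.08 in CTCF HiChIP, against 1.59 and 1.61 over all 1831 bins. The 57 bins with fewer far ends in Hi-C had medians of 1.603 in FGFR1 and 1.36 in CTCF HiChIP, so their fall was not seen in the HiChIP medians. Among bins at the centromere end 44 of 157 reached 2-fold, or 28.03%, against 208 of 1510 in the interior (13.8%) and 15 of 164 at the telomere end (9.15%). On chromosome 17 it was 25 of 49 bins, with a median ratio of 2.05, and on chromosome 18 it was 0 of 43.

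Bin ratios also followed how often a bin was seen at all. Over the 1831 bins the log2 far ratio had an r of 0.55 with the log2 ratio of inter-chromosomal ends and 0.54 with that at 10 to 50 Mb, from the same libraries. Divided by the inter-chromosomal ratio, 78 bins reached 2-fold and 86 lay below 1. Of the 57 bins with fewer far ends in NCC 44 also had fewer inter-chromosomal ends, against 309 of all 1831.

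The 5 bins with the highest ratio lay on chromosomes 1 and 6, and their ratios are a description, since they chose the bins. The bin chr1:81000001-82000000, with the neuronal adaptor gene Nyap2, went from 72 to 273 far ends, 3.71 times (2.86 to 4.80), and by 3.32 times in FGFR1 and 2.04 times in CTCF HiChIP. The bin chr1:18000001-19000000, with the defensin genes Defb18 and Defb41, went from 55 to 207 ends (3.68 times). At chr6:8000001-9000000, where the synaptic ligand gene Nxph1 lies, it was 64 to 227 ends (3.47 times). The bin chr1:169000001-170000000 of Rgs4 and Rgs5, regulators of G protein signalling, went from 52 to 180 (3.38 times), and chr6:17000001-18000000, with the caveolin genes Cav1 and Cav2 and the receptor gene Met, from 108 to 347 (3.14 times). Their inter-chromosomal ends rose as well, by 1.59 to 2.35 times.

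Of the 5 lowest bins 4 held at most 1 gene. The bin chr1:66000001-67000000, which holds 6 genes, among them the neuronal microtubule protein gene Map2, went from 133 to 56 far ends, 0.41 times (0.30 to 0.56). The others, at chr3:4000001-5000000, chr2:55000001-56000000 with the potassium channel gene Kcnj3, chr1:116000001-117000000 and chr1:123000001-124000000, had 0.596 to 0.64 times. Their inter-chromosomal ends were 0.33 to 0.55 times, and 0.40 times in the Map2 bin. In FGFR1 HiChIP all 5 had ratios above 1, from 1.08 to 1.62 on 17 to 63 ends, and in CTCF HiChIP 3 of the 5 had ratios below 1 on at most 16 ends.

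The 14 bins of pluripotency genes had a median ratio of 1.45, against 1.56 over all bins, 0 reached 2-fold and 1 was below 1, against 14.6% and 3.11% of all bins. The bin of Pou5f1, the core pluripotency factor, went from 137 to 153 far ends (1.09 times, 0.87 to 1.37), that of Sox2 from 330 to 436 (1.29 times, 1.12 to 1.49), and the shared bin of Nanog and Dppa3 from 233 to 430 (1.80 times, 1.54 to 2.12). The bin of Tbx3 went from 497 to 528 (1.04 times, 0.92 to 1.17). The bin of Zfp42, a marker of undifferentiated cells, had 64 and 55 ends (0.84 times, with an interval from 0.59 to 1.20 that held 1).

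Bins of retinoic acid response and neural induction genes had a median of 1.71 over the 13 of 17 bins that could be tested, and 3 reached 2-fold, or 23.1% against 14.6% of all bins, a difference of few bins. These were the bin of Meis1, a homeobox partner of Hox proteins, from 195 to 437 ends (2.19 times, 1.85 to 2.59), that of Stra8, a gene induced by retinoic acid, from 344 to 751 (2.13 times, 1.88 to 2.42), and that of the proneural factor gene Neurog2, from 70 to 152 (2.12 times, 1.599 to 2.82). The retinoic acid receptor gene Rarb, the reductase gene Dhrs3 and Zic1 lay in bins with 38, 47 and 24 ends in ESC and 118, 133 and 102 in NCC, under the minimum. Of the Hox genes, the bin of Hoxb1 rose by 1.92 times and that of Hoxd1 by 1.22 times. The bin of Cyp26a1, which breaks down retinoic acid, had no locus 50 Mb away on chromosome 19. Pooled over all bins of each list, also those under the minimum, the Hi-C ratio was 1.46 for pluripotency and 1.68 for retinoic acid bins. The HiChIP libraries did not keep this order, with pooled ratios of 1.48 and 1.45 in FGFR1 and 1.68 and 1.64 in CTCF.

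Among gene families 7 of 31 bins of zinc finger (Zfp) clusters reached 2-fold, with a median of 1.73 and none below 1. Olfactory receptor bins (Olfr) had 5 of 43 and a median of 1.53, vomeronasal receptor bins (Vmn1r and Vmn2r) 5 of 16 and 1.58, and bins with a ribosomal protein gene (Rpl and Rps) 12 of 79 and 1.49. Below 1 were 1 of the 43 olfactory, 3 of the 16 vomeronasal and 1 of the 79 ribosomal protein bins, against 3.11% of all bins. The 4 Hox, 4 histone and 7 keratin bins had none at 2-fold. The 2 protocadherin bins had too few ends. Against the 14.6% of all bins these shares rest on few bins each, and no difference between families was tested.

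The pairs of 1 Mb bins that most exceeded the number expected from both bins' far totals and distance, among those with at least 20 read pairs in both cell types together, were chosen by this excess, and their values are a description. The first joined chr1:32000001-33000000, with Khdrbs2, and chr1:122000001-123000000, which holds no protein-coding gene, with 19 read pairs in ESC and 16 in NCC against 0.42 and 0.64 expected. All its read pairs in either library came from 1 place in the first bin, near 32.38 Mb. The second joined the first bin of chromosome 1, next to the centromere gap, with chr1:88000001-89000000, which holds the Ugt1a cluster of glucuronidation enzymes. It had 45 and 35 read pairs against 4.26 and 3.44 expected, spread over 44 and 35 interactions, and 9 and 6 read pairs in FGFR1 HiChIP. The third, on chromosome 4, contains the Gm11223 pair of anchors printed above, with 18 and 17 read pairs against 2.92 and 2.59.

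The fourth joined chr8:19000001-20000000, a cluster of beta-defensin genes, with chr8:103000001-104000000, which holds no protein-coding gene (14 and 9 read pairs against 1.79 and 2.14). The fifth joined the bins of Nmur2 and of Abca8a on chromosome 11, at 56 to 57 and 110 to 111 Mb, and was the only one with more in NCC, 5 and 15 read pairs against 0.93 and 2.56 expected. The first 4 thus had fewer read pairs in NCC than in ESC, by 1 to 10 read pairs.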

How the data were processed

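Hi-C, FGFR1 HiChIP and CTCF HiChIP were measured in ESC and NCC, with 2 biological replicates per group. The authors kept valid, deduplicated read pairs with HiC-Pro (default settings, mm10) and merged replicates for the later steps. They assigned read pairs to anchors with hichipper (default settings, each sample on its own, all connection types, no q threshold). The deposited score is a count of read pairs per pair of anchors. The paper states that numbers of valid pairs were normalized between the compared cell types. Whether that step came before the deposited scores is not known here. The versions of both tools are not given in the sources used here. On chromosomes 1 to 19 and X the libraries hold 20745652 and 21228099 (Hi-C), 2662606 and 3203872 (FGFR1) and 1218098 and 1056437 (CTCF) read pairs in ESC and NCC, which sets the counting intervals. The paper reports more valid read pairs per condition than these libraries hold, and read pairs outside the deposited anchors are not counted here. In Hi-C 81.02% of ESC anchors and 81.62% of NCC anchors overlapped an anchor of the other cell type. In FGFR1 HiChIP it was 66.07% and 58.62%, and in CTCF HiChIP 51.65% and 51.94%. Reads are not independent molecules beyond deduplication.

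Libraries were scaled to these totals. Anchors were placed at midpoints and 1 Mb bins. Expected numbers were proportional to the product of both bins' inter-chromosomal ends, scaled to all inter-chromosomal bin pairs. As an alternative, bins' own far totals and distance were fitted iteratively. Log2 ratios have 95% Wald intervals, called where they exclude 0. Such a call compares pooled libraries, not conditions. Genes came from GENCODE vM21 and sequence from RefSeq GRCm38. Steps were tested on simulated data. Python 3.11.15, numpy 2.4.6, pandas 2.3.3 and scipy 1.17.1 were used.

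The contacts and lists were chosen with earlier results of these data known. Named were all autosomes, the 5 bins with the highest and 5 with the lowest ratio among those with at least 50 far ends per library, the 5 bin pairs highest over expectation with at least 20 read pairs, the 4 anchor pairs with the highest scores, and fixed gene lists. The block of chromosome 16, the distance bands of classes and the HiChIP groups were added after values were seen. Values of some listed genes are not reported here.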

Additional observations from a re-analysis of the deposited data

How the results depend on the processing

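No paired analysis was possible because the deposited tables merge both replicates of each group, and for the same reason no replicate could be left out. In place of that, each autosome was left out in turn, and no call changed: the Hi-C log2 ratio of far contacts ranged from 0.62 to 0.65, that over inter-chromosomal read pairs from 0.42 to 0.45, the difference between distances from 0.41 to 0.53, end against interior pairs from 0.29 to 0.39, gene-rich against gene-poor pairs from -0.23 to -0.17 and mixed against like pairs from 0.19 to 0.22, while the FGFR1 and CTCF HiChIP ratios ranged from 0.65 to 0.69 and from 0.68 to 0.71. With scores of at least 2 only, which keep 664 interactions in ESC and 912 in NCC, end against interior pairs turned to -0.70 (-1.37 to -0.04), mixed against like pairs were 0.13 with an interval from -0.17 to 0.44 that held 0, and the CTCF HiChIP ratio turned to -0.61 (-1.19 to -0.02) on 38 and 17 interactions, and the far share was higher in NCC on 16 of 19 autosomes. With the expected number from far totals and distance, end against interior pairs were -0.0088, with an interval that held 0, and gene-rich against gene-poor pairs 0.0542. The number of bins at least 2-fold higher in NCC, 267 of 1831 tested, was 147 with a distance of 40 Mb or more, 143 with bins of 2 Mb, of which there are fewer, and 161 with at least 100 ends. The number of bins tested differs between these settings and is not given for them, so the counts cannot be compared as shares. The other results kept direction and call under these settings, and all did with each interaction counted once, without the strongest 1% of anchors, with anchors of both cell types, at 75 Mb or more, with intra-chromosomal denominators, ends of 5 or 20 Mb, narrower gene classes, GC classes, expected numbers from all read pairs, smaller bins and long chromosomes. Causes of these changes were not tested. At this depth single pairs of 1 Mb bins held few read pairs, so single pairs were compared only where named.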
